A study of Mus musculus with 6 samples.

Results

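The genes described here are 9 members of the vascular endothelial growth factor (VEGF) family in mouse heart. They are the ligand genes Vegfa, Vegfb, Vegfc and Pgf, the receptor genes Flt1 (VEGFR1), Kdr (VEGFR2) and Flt4 (VEGFR3), and the co-receptor genes Nrp1 and Nrp2 (neuropilins). They were taken by symbol out of 19938 genes, each member had 1 probe set annotated to it alone, and all 9 passed the filter on low values in every comparison. Heart tissue of adult mice, 6 months old (postnatal day 180 in the labels), was profiled on 1 Affymetrix Mouse Gene 1.0 ST array per sample. The 6 arrays comprised 1 wild type (WT), 2 Id control hearts, 1 Id conditional knockout (Id cKO), and a pair of Id cKO hearts of which 1 was treated with mouse recombinant IGFBP3 and 1 was left untreated. Id control 1 had the genotype Id1F/+Id3-/-, Id control 2 Tie2Cre+Id1-/-Id3+/-, and Id cKO Tie2Cre+Id1F/-Id3-/-. The labels give the IGFBP3-treated and untreated hearts as Id cKO without spelling out the alleles. The series' design text calls both of them incubated, the untreated one as control, with no time or medium, and no other heart is so described. By these genotypes Id cKO and Id control 1 lack functional Id3, and Id control 2 lacks Id1 in all cells. Tie2Cre is a transgene that drives Cre recombinase in endothelial cells and in blood cells, so that floxed Id1 (Id1F) is removed there and not in heart muscle. Nothing in the labels says whether an array came from 1 animal or a pool, so p-values cover the spread among these samples alone, and that spread may be technical.

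VEGF ligands are secreted proteins that bind receptor tyrosine kinases on endothelial cells. VEGF-A acts mainly through VEGFR2 and drives the growth and permeability of blood vessels, while VEGFR1 binds VEGF-A, VEGF-B and placental growth factor and in large part holds ligand back from VEGFR2. VEGF-C signals through VEGFR3, which is best known from lymphatic vessels, and neuropilins bind both VEGF and class 3 semaphorins. In the adult heart, muscle cells make much of the VEGF-A and VEGF-B, and the receptors sit mostly on the capillary endothelium. Id1 and Id3 are helix-loop-helix proteins that keep E proteins from binding DNA.

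The arrays followed their labels, with limits that touch the results below. On values quantile-normalised over the 6 arrays, Id3 lay between 4.24 and 5.03 (log2) on Id control 1 and the 3 arrays labelled Id cKO, and at 6.81 and 6.90 on WT and Id control 2. Defining heart muscle genes were high on every array, with a mean over 13 cardiomyocyte markers of 12.31 to 12.90. The incubated pair was deposited on a lower scale, with medians of 4.45 and 4.51 against 5.73 to 5.83, so it was set beside the other arrays after quantile normalisation alone. The labels carry 3 date codes, 1 of them shared by WT, Id control 2 and Id cKO, 1 of Id control 1 alone and 1 of the pair. Id control 2 alone had the atrial light chain Myl7 at 11.90, against 4.76 to 5.56 elsewhere. The X-inactivation RNA Xist was at 3.59 to 3.92 in WT and the pair and at 7.71 to 8.23 in the 3 others, so the groups differed in sex. Id control was the only group with more than 1 array, and a difference between single arrays has no test.

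Among the ligands, Vegfa and Pgf were about 2-fold above Id control in the Id cKO heart, and Vegfb and Vegfc lay close to it, with no member past the adjusted limit in limma. In RNA of heart tissue, more cells of a type and more RNA per cell cannot be told apart. The level of Vegfa (log2, as deposited) was 9.97 in WT, 10.03 and 10.02 in Id control 1 and 2, and 10.96 in Id cKO. The WT and control hearts were thus nearly equal and Id cKO stood alone above them. Relative to Id control (10.03 ± 0.0023, SD, n = 2) Id cKO was 1.91-fold higher, or 0.93 ± 0.14 on the log2 scale (limma SE), with an unadjusted p of 0.0019 and an adjusted p of 0.207 in limma. Pgf encodes placental growth factor, a ligand of VEGFR1 that is scarce in the resting adult heart. WT had it at 6.93, the Id controls at 6.63 and 6.98, and Id cKO at 8.00. Pgf was the only member at least 2-fold above both Id control arrays, 2.29-fold above their mean (1.19 ± 0.20, limma SE, adjusted p = 0.220 in limma). Vegfb, a ligand of VEGFR1 linked to fatty acid supply in heart muscle, was at 10.86, 10.94, 10.73 and 10.78 in WT, Id control 1, Id control 2 and Id cKO, and the Id cKO value fell between the controls. Vegfc was at 6.68, 7.10, 6.81 and 7.16 in the same order, so that Id cKO was 0.06 above the nearer control and 0.21 ± 0.18 (limma SE, adjusted p = 0.675) above their mean. Vegfd, the ligand gene that the 9 members leave out, was at 6.60 in Id cKO and at 6.66 and 6.60 in the controls.

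The 250 bases before the 5′-most RefSeq start (GRCm38.p6) are shown for Vegfa and Pgf, the 2 ligand genes that were higher, and for Vegfb, which was not, to set their base composition and motifs side by side. Each is written 5′ to 3′ on the gene's strand, the minus strand for all 3. Capitals mark GGGCGG (GC box), ACGTG or GCGTG (cores of the hypoxia response element), and CAGCTG or CAGGTG (E-boxes that E proteins can bind), each sought on both strands, so that a reverse complement is in capitals too. Vegfa lies at chr17:46032378-46032627, Pgf at chr12:85177314-85177563 and Vegfb at chr19:6987652-6987901.
Vegfa: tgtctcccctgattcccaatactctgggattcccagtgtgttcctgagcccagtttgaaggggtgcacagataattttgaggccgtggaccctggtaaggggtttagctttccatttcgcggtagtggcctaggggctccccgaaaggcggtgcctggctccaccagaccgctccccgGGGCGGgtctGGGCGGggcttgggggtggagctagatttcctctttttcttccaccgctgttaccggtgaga
Pgf: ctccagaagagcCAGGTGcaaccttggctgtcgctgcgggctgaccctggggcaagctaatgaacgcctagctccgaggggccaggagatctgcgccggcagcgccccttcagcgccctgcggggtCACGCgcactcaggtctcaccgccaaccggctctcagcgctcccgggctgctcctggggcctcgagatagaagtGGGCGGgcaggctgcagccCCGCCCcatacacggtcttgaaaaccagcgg
Vegfb: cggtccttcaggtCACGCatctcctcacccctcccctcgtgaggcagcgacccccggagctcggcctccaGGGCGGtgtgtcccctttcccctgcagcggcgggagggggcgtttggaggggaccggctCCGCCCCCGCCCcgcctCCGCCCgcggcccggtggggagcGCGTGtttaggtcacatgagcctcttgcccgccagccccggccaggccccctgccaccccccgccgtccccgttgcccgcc
The Vegfa window held GGGCGG 2 times and none of the other motifs. The Pgf window held GGGCGG 2 times, GCGTG once and CAGGTG once, and the Vegfb window held GGGCGG 4 times and GCGTG 2 times. In the corresponding window of all 9 members GGGCGG was present, against 33% of the windows of 27025 genes. GCGTG was present in 6 of 9 (28.3% of all), CAGGTG in 2 of 9 (17.1%), and ACGTG and CAGCTG in 0 of 9 (16.5% and 12.7%). These counts are for the first start alone. RefSeq gives Vegfa a second start, whose window at chr17:46025164-46025413 held ACGTG once, GCGTG once, CAGGTG 2 times and GGGCGG once, and the window of a second Pgf start held CAGCTG once. Both second windows lie downstream of their gene's first start, so these matches are not upstream of it. The members' windows were also rich in G and C, with a median of 68.4% (59.2 to 76.4%) against 52% over all genes. GC-rich windows hold GGGCGG more readily, and a match describes letters and not a bound site.

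Of the receptors, Flt4 and the co-receptor Nrp2 were the furthest above Id control, while Flt1 and Nrp1 lay near it. Flt4 encodes VEGFR3, the receptor of VEGF-C. WT had it at 7.17, the Id controls at 7.32 and 7.30, and Id cKO at 8.12, 1.74-fold above the control mean (0.80 ± 0.14, limma SE, adjusted p = 0.223). As for Vegfa, the 3 other arrays were close together and Id cKO stood apart. Nrp2 encodes the neuropilin of veins and lymphatic vessels, which binds VEGF-C and semaphorin 3F. WT had it at 7.64, the controls at 8.23 and 7.62, and Id cKO at 8.89. Here the controls themselves were 0.61 apart, and the difference of 0.96 ± 0.29 (limma SE) had an adjusted p of 0.323. Without Id control replicate 1 it was 1.27, and without replicate 2 it was 0.66. Kdr, the main signalling receptor of VEGF-A, was at 9.70 in WT, 10.11 and 9.72 in the controls and 10.28 in Id cKO (0.37 ± 0.21, limma SE, adjusted p = 0.527). The Id cKO value lay above both controls, but by 0.17 over the nearer one, less than the 0.39 between them. Flt1 was at 9.56 in WT, 9.44 and 9.27 in the controls and 9.55 in Id cKO, so that WT and Id cKO were level. Nrp1 was at 9.12, 9.85, 9.39 and 9.76 in WT, Id control 1, Id control 2 and Id cKO, with Id cKO between the controls.

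The windows of Flt4 and Nrp2 are given as those of the receptor genes furthest above Id control, with the same capitals as above. Both lie on the plus strand, at chr11:49609429-49609678 and chr1:62703067-62703316.
Flt4: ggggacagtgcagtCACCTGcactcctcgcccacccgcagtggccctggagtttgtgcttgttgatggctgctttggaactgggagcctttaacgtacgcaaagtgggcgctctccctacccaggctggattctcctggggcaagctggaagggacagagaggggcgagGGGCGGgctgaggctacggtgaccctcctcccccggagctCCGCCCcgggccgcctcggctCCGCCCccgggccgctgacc
Nrp2: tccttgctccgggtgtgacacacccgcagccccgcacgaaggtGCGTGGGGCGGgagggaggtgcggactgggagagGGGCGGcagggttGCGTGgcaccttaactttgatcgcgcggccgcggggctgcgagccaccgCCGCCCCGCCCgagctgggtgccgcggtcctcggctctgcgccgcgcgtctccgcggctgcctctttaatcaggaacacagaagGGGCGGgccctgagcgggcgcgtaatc
GGGCGG occurred 3 times in the Flt4 window and 5 times in the Nrp2 window. The Flt4 window also held CAGGTG once, and the Nrp2 window GCGTG 2 times.

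**Figure D1:**
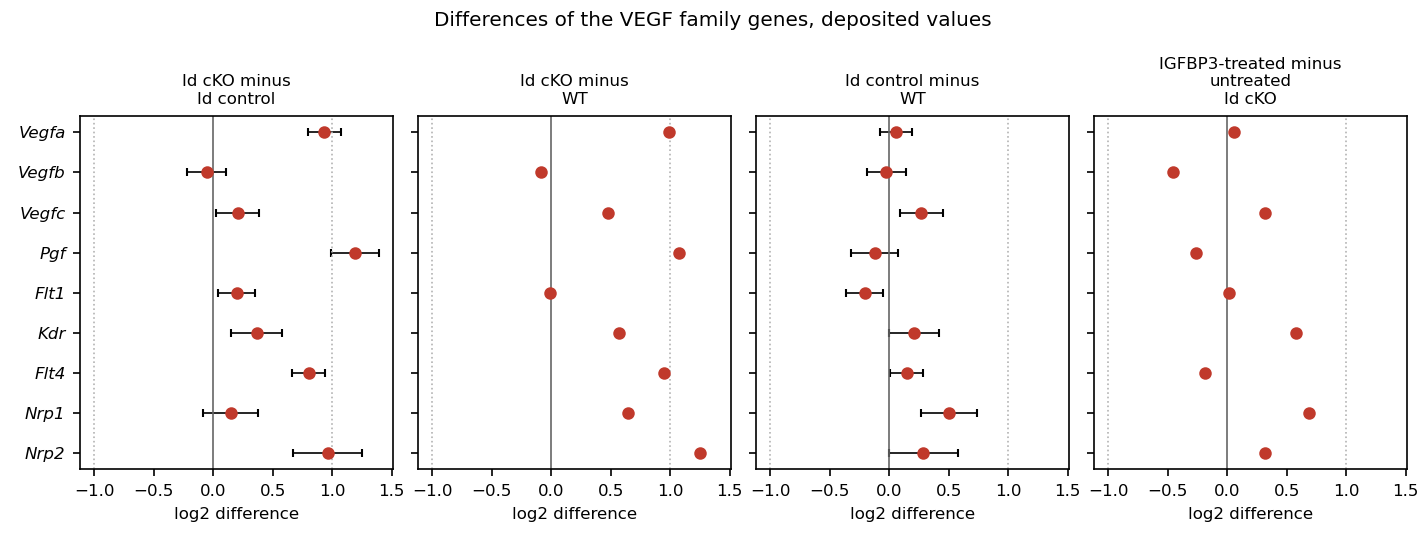
Differences (log2, deposited values, horizontal axis) of the 9 genes in 4 comparisons, 1 panel each; bars are the limma SE, which the panels of 1 array against 1 lack, and dotted lines mark 2-fold. Vegfa, Pgf, Flt4 and Nrp2 lie between 0.80 and 1.25 in both panels of Id cKO, while against WT the Id controls differ by at most 0.50.

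Counted over the family, the Id cKO level exceeded the Id control mean for 8 of 9 members (median 0.37), against 45.3% of 11310 genes compared (median -0.03). In 7 of 9 the Id cKO value lay above both controls, which held for 33.5% of all genes, with 41.9% below both, and in 1 of 9 it was at least 2-fold above both, against 0.698%. In limma 0 of 9 passed an adjusted p of 0.05, and only 2 of the 11310 genes compared did (0.0177%). At an unadjusted p under 0.05 there were 4 members, Vegfa, Pgf, Flt4 and Nrp2, all higher, against 6.08% of genes that were higher at that limit. The smallest adjusted p of any gene was 0.038, shared by Igfbp3, and the Id control pair gave the only residual degree of freedom. With a floor of 8 Pgf was no longer compared, and with each array centred on its median it fell just short of 2-fold, so that the count was 0 in both.

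Against WT, which has the same date code as Id cKO but the other sex pattern, Nrp2 and Pgf were furthest higher. Nrp2 (1.25) and Pgf (1.07) were at least 2-fold higher, as were 2.2% of 11478 genes. Vegfa (0.99) and Flt4 (0.95) were just under that limit, and both passed it (1.05 and 1.01) when arrays were centred on their medians, which gave 4 members in place of 2. That centring also moved the median of all genes from 0.0045 to 0.0667, and the share above 0 from 50.8% to 60.1%. Nrp1 (0.65), Kdr (0.57) and Vegfc (0.48) followed, and Vegfb (-0.08) and Flt1 (-0.01) were level with WT. In all 7 of 9 members were higher (median 0.65), against 50.8% of all genes. This comparison and that with Id control share the Id cKO array, so the 2 sets of differences are not independent.

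The Id control hearts, which each lack functional copies of 1 Id gene, differed little from WT in this family. Both Id controls were above WT in 5 of 9 members and below it in 1, against 45.5% and 28.5% of genes, and 6 of 9 means were higher, against 60.1%. That share of genes was 51.7% after quantile normalisation, with 5 of 9 members higher, and 74.1% with median centring, with 7 of 9. No member was 2-fold from WT on both Id control arrays, where 0.105% of 11407 genes were higher and 0.0964% lower. In limma 0 of 11407 genes passed an adjusted p of 0.05, against 4.83% higher and 2.43% lower at an unadjusted p under 0.05, none of them members. The member furthest from WT was Nrp1 (0.50 ± 0.23, limma SE, adjusted p = 0.629), at 9.85 and 9.39 against 9.12. Vegfa differed by 0.06 ± 0.14 (adjusted p = 0.897). The deposited difference of Vegfa was above 0 and that after quantile normalisation below it (-0.011). Between the 2 Id control arrays 8 of 9 members were higher in Id control 1, against 50% of genes, by up to 0.61 for Nrp2, 0.45 for Nrp1 and 0.39 for Kdr, whereas Vegfa differed by 0.003 and Flt4 by 0.02. None was 2-fold apart, as were 0.169% of 11244 genes higher in Id control 1 and 1.04% lower.

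The incubated pair adds 2 hearts labelled Id cKO. After quantile normalisation Vegfa was at 9.60 in WT, at 9.60 and 9.58 in Id control 1 and 2, at 10.59 in Id cKO, 10.50 with IGFBP3 and 10.52 without it. The 3 arrays of Id cKO type thus lay within 0.1 of each other, as did the other 3, with nearly 2-fold between them. The difference of 0.94 ± 0.13 (limma SE) had an adjusted p of 0.0141, and the means were 10.54 ± 0.05 and 9.59 ± 0.01 (SD, n = 3 each). Pgf was at 6.54, 6.23 and 6.57 in WT and the Id controls, 7.61 in Id cKO, 9.12 with IGFBP3 and 9.47 without. Every Id cKO heart was above every other heart, and the pair was higher still than the first Id cKO heart. The 3 Id cKO hearts differed from the 3 others by 2.28 ± 0.42 (limma SE, adjusted p = 0.0292). Both rose in this comparison, 2 of 9 members against 2.55% of 10099 genes that rose and 1.81% that fell (4.37% in all). Pgf alone was 2-fold higher on each Id cKO array than on each other array, against 0.376% of genes higher and 0.158% lower. The mean was higher for 8 of 9 members (median 0.57), against 46.5% of genes (median -0.04). The pair holds Id cKO hearts alone, so for these 2 arrays the genotype cannot be told apart from the set of arrays or from the incubation.

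The size of the Vegfa difference did not turn on the pair, whereas that of Pgf did. With the pair as a block, which leaves Id cKO against WT and both Id controls, Vegfa was 1.00 higher (adjusted p = 0.0541 in limma) and Pgf 1.16 (adjusted p = 0.0728). With the 3 date codes as a block, which leaves Id cKO against WT and Id control 2, they were 1.00 (adjusted p = 0.16 in limma) and 1.05 (adjusted p = 0.169) higher. Without the Id cKO array, Vegfa was 0.92 higher and Pgf 2.85, and 3302 of 10239 genes passed in limma, so the 2 sets differ in much else. The adjusted p of Vegfa was 0.094 without WT, 0.081 without Id control 1 and 0.0698 without the IGFBP3-treated array. That of Pgf was 0.123, 0.111 and 0.146 without the same arrays, 0.0613 without Id control 2 and 0.094 without the untreated array. Over all 15 alternatives Vegfa stayed between 0.92 and 1.00 and Pgf between 1.05 and 2.85.

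**Figure D2:**
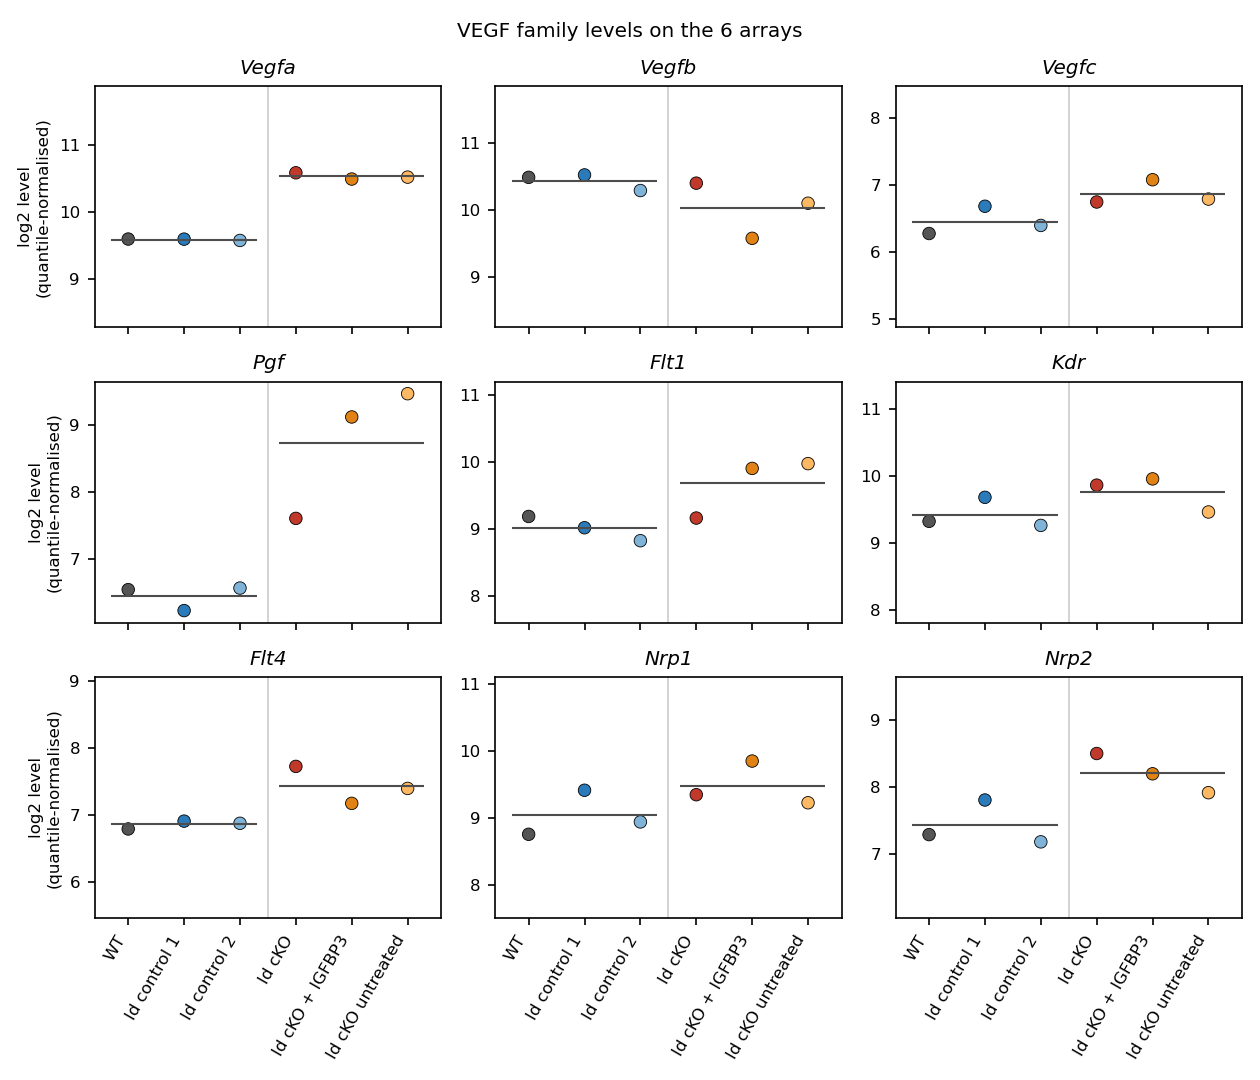
Levels of the 9 genes (log2, quantile-normalised, vertical axis) on each of the 6 arrays (horizontal axis), with points coloured by array and a bar at the mean of each group of 3; every panel spans 3.6 units. Vegfa forms 2 flat steps near 9.6 and 10.5, Pgf is highest in the pair at 9.12 and 9.47, and the arrays of Kdr, Nrp1, Flt1 and Vegfb overlap between the groups.

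The other 7 members divide by whether the groups of 3 arrays overlapped. Flt4 was at 6.80, 6.92 and 6.88 in WT and the Id controls and at 7.73, 7.18 and 7.40 in Id cKO, treated and untreated hearts (0.57 ± 0.17, limma SE, adjusted p = 0.0935). Nrp2 was at 7.29, 7.81 and 7.18 and then at 8.50, 8.20 and 7.92 (0.78 ± 0.22, limma SE, adjusted p = 0.0813). Vegfc was at 6.28, 6.69 and 6.40 and then at 6.75, 7.09 and 6.80 (0.42 ± 0.17, limma SE, adjusted p = 0.162). In these 3, as in Vegfa and Pgf, each Id cKO heart was above each other heart, with 0.06 between the nearest Vegfc values and 0.11 between those of Nrp2. That makes 5 of 9 members, against 14% of all genes. Flt1 was at 9.18, 9.01 and 8.82 and then at 9.16, 9.90 and 9.97, so it was high in the pair and not in the first Id cKO heart. Its difference of 0.67 ± 0.23 (limma SE, adjusted p = 0.123) was 0.15 with the pair as a block and 0.93 (adjusted p = 0.00411) without the Id cKO array. Kdr (0.34 ± 0.19, limma SE, adjusted p = 0.279) and Nrp1 (0.44 ± 0.23, adjusted p = 0.251) had their untreated array below Id control 1. Vegfb was the 1 member with a lower mean in the Id cKO hearts (-0.41 ± 0.22, limma SE, adjusted p = 0.256), at 10.40, 9.58 and 10.10 against 10.49, 10.52 and 10.29. Its difference was -0.03 with the pair as a block, 0.01 with the 3 date codes as a block and -0.59 (adjusted p = 0.0415) without the Id cKO array.

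**Figure D3:**
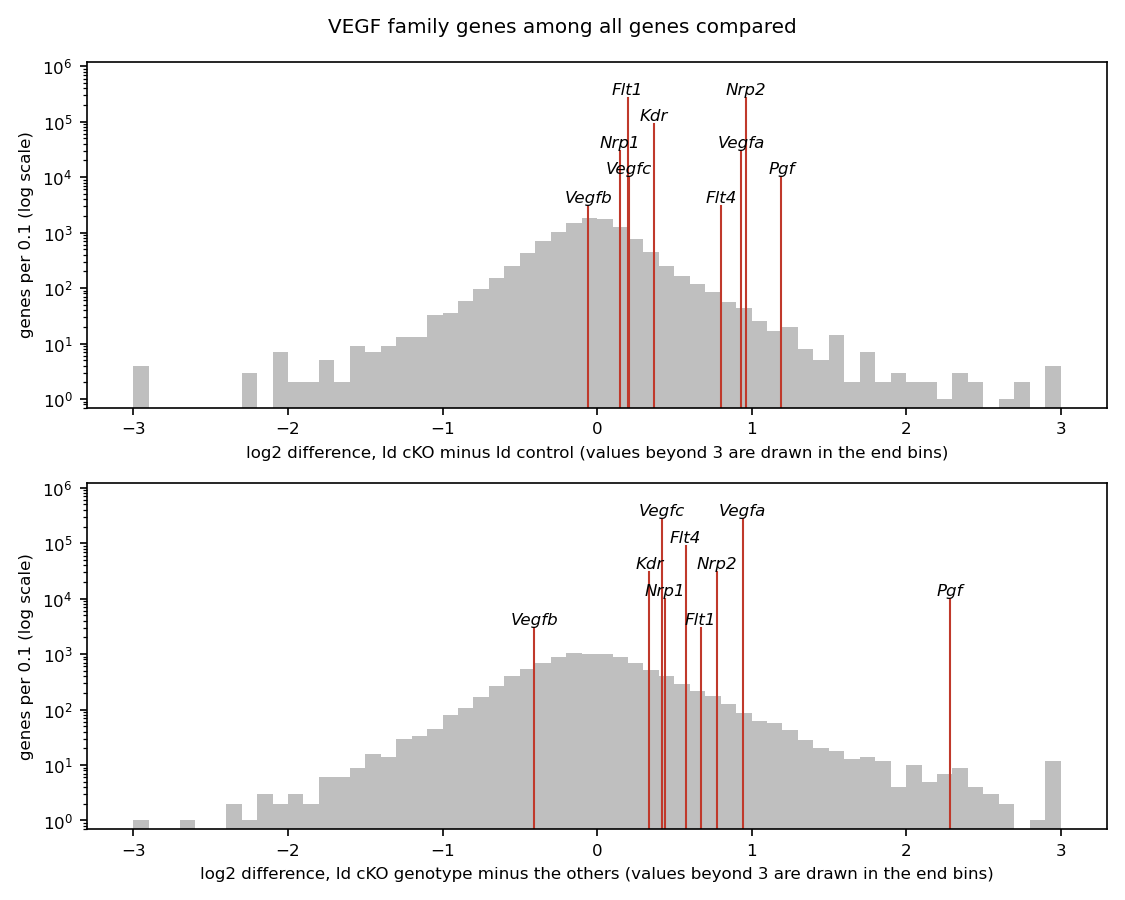
Distribution of the log2 differences (horizontal axis) of all genes compared, as genes per bin on a log scale, with red lines at the 9 members; the upper panel sets Id cKO against Id control (11310 genes), the lower 3 Id cKO hearts against the 3 others (10099 genes). Pgf, Nrp2, Vegfa and Flt4 lie in the upper tail of the upper panel, and Pgf lies furthest out in the lower one at 2.28.

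Between the IGFBP3-treated and the untreated Id cKO heart no member was 2-fold apart, where 0.567% of 10046 genes were higher and 0.677% lower. IGFBP3 carries insulin-like growth factors outside cells. The co-receptor Nrp1 was furthest higher with IGFBP3 (9.06 against 8.37 as deposited, 1.61-fold), followed by Kdr (9.16 against 8.59, 1.49-fold). Nrp2 (0.32) and Vegfc (0.31) were also higher. Vegfb was lower (8.79 against 9.25, a difference of -0.46), as were Pgf (-0.27) and Flt4 (-0.18). Vegfa (0.06) and Flt1 (0.01) were level between the 2 hearts, and their sign turned after quantile normalisation (-0.03 and -0.07). Over the family 6 of 9 were higher as deposited and 4 of 9 after quantile normalisation, against 52% and 49.5% of genes, and the median of 0.06 stood beside 0.02 for all genes. Endothelial markers were higher for 18 of 24 in the same comparison (median 0.23). With 1 array on each side these differences have no replicate check.

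Markers of endothelial cells, where the receptors are made, were mostly higher in the Id cKO hearts too. Against Id control 20 of 24 were higher and 4 lower (median 0.45), where 45.3% of all genes were higher, and 0 passed in limma. The largest differences were those of the tight junction gene Cldn5 (1.01), the sialomucin gene Emcn (0.90) and the transcription factor gene Sox18 (0.88). Flt1 (0.20), Nrp1 (0.15) and Kdr (0.37) were below that median and Nrp2 and Flt4 above it. Over the 6 arrays the markers' mean was 8.51, 8.44 and 8.45 in WT and the Id controls, and 8.89, 9.37 and 9.25 in Id cKO, treated and untreated hearts. On a linear scale their summed level was 10535 to 11559 in the first 3 and 13992 to 21137 in the Id cKO hearts. All 24 were higher on average in the Id cKO hearts, against 46.5% of all genes, 17 without overlap, against 14%, and 6 rose in limma (Cd34, Cldn5, Emcn, Esam, Mmrn2 and Sox18), against 2.55%. With no filter or with median centring 4 rose. None passed with either block, without WT, without Id control 1 or without the IGFBP3-treated array, 1 without Id control 2 or the untreated array, and 18 markers passed without Id cKO. Without Id cKO, 3302 of all 10239 genes passed. Of the defining markers, Cdh5 was at 9.34 to 9.69 against 10.08 to 10.29 and Pecam1 at 8.92 to 9.49 against 9.54 to 9.95. The ranges of Tek (8.38 to 8.65 against 8.60 to 9.80) and Eng (9.49 to 9.95 against 9.68 to 10.90) overlapped. Cardiomyocyte markers, for the cells that make much of the heart's VEGF-A, had medians of -0.06 against Id control and -0.25 in the comparison of 3 with 3. In that comparison 1 of 13 such markers was higher after quantile normalisation, 8 of 13 with median centring (median 0.08) and 6 of 13 with cyclic loess (median -0.03), so their direction hangs on the scaling, and 0 passed in limma. Fibroblast markers (-0.31 and 0.64) and macrophage markers (-0.31 and 0.40) had medians of opposite sign in the 2 comparisons, and their level in the pair was higher than in the first Id cKO heart (means of 9.90 and 9.95 against 8.96 for fibroblast, 7.73 and 7.99 against 6.87 for macrophage markers). The fibroblast mean was also high in Id control 2, the array with high Myl7 (9.70, against 8.89 in Id control 1 and 8.53 in WT). Smooth muscle and pericyte markers had medians of 0.25 and 0.50, and red cell and platelet markers -0.30 and 0.41. The part of these cell types in the differences of the 9 members was not tested.

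Lymphatic markers, for the vessels from which Flt4 and Nrp2 are best known, had mixed signs. Of 5 compared between Id cKO and Id control, 3 were higher and 2 lower (median 0.33). Of these, Mmrn1 reached the floor of 6 through Id cKO (6.01 as deposited). Its control values were 5.29 and 6.07, with a mean under the floor. The hyaluronan receptor gene Lyve1, which macrophages also express, was the largest of these differences at -1.53 (adjusted p = 0.281 in limma). It was at least 2-fold below both controls, as were 0.424% of all genes. The incubated pair did not share this low level. Quantile-normalised Lyve1 was 6.78 on the first Id cKO array, but 8.27 with IGFBP3 and 8.48 without. Both values of the pair fell inside the span of WT (7.97) and the Id controls (7.85 and 8.70). In the comparison of 3 with 3, 2 of 4 were higher (median 0.13), and 0 passed in limma.

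Genes that VEGF is known to induce in endothelial cells were mostly higher in the Id cKO hearts. Of 19 compared with Id control 15 were higher, against 45.3% of all genes, with a median of 0.52 against -0.03 for all genes. The calcineurin regulator gene Rcan1 (1.78), the urokinase gene Plau (1.72) and the netrin receptor gene Unc5b (1.70) were at least 2-fold above both controls. That makes 3 of 19, against 0.698% of all genes, and 0 of 19 passed in limma. In the comparison of 3 with 3, 17 of 19 were higher (median 1.06, against 46.5% of all genes) and 8 rose in limma, against 2.55%, namely Esm1 (1.88), Unc5b (1.44), Adamts1 (1.43), Rcan1 (1.38), Cd34 (1.37), Plau (1.26), Nos3 (1.06) and Plat (0.93), with adjusted p from 0.0141 to 0.0487. Esm1 encodes endocan, a proteoglycan of endothelial tip cells, and Nos3 the endothelial nitric oxide synthase. Quantile-normalised Esm1 was at 4.7, 4.9 and 5.0 in WT and the Id controls and at 5.9, 7.3 and 7.1 in the Id cKO hearts. It thus passed the floor of 6 through the Id cKO hearts alone, as did Angpt2 (5.3, 5.1 and 5.2, then 5.8, 6.4 and 5.8). Cd34 is also on the list of endothelial markers. With no filter 5 passed, with the pair as a block 3 (Rcan1, Plau and Unc5b), with the 3 date codes as a block these and Dll4, without WT or Id control 1 none did, without Id control 2 there were 3, without the treated or the untreated array 1, and without Id cKO 12. Over all genes, 3302 of 10239 passed without Id cKO. Between the treated and untreated hearts 7 of 19 were higher (median -0.01), against 52% of all genes. The early response genes Egr1 and Nr4a1 were 2-fold lower with IGFBP3 (-1.04 both), as were 0.677% of all genes.

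Below the receptors lie kinases, adaptors and effectors that carry the signal. Of 41 such genes listed, 35 were compared with Id control, 24 of them higher (median 0.13, against 45.3% of all genes), and 0 passed in limma. The largest differences were Nos3 (0.85), the PI3-kinase subunit gene Pik3r1 (-0.80) and the integrin gene Itgb3 (0.79). In the comparison of 3 with 3, Itgb3 (1.08), Nos3 (1.06) and the scaffold gene Iqgap1 (0.85) rose and Pik3r1 (-1.13) fell, 4 of 34 against 4.37% of all genes, with adjusted p from 0.0141 to 0.0392 in limma. With no filter 2 passed, Nos3 and Iqgap1. Of the 34, 0 passed with either block or without WT, Id control 1 or the treated array, 1 (Nos3) without Id control 2 or the untreated array, and 9 rose and 2 fell without Id cKO. That last count stands beside 3302 of all 10239 genes that passed without Id cKO. Among semaphorins and plexins, the partners of neuropilins, Sema3f, a ligand of neuropilin 2, was at least 2-fold above both controls (1.18), as were 0.698% of all genes. It also rose in the comparison of 3 with 3 (1.17, adjusted p = 0.011 in limma), while Plxnb1 fell (-0.97, adjusted p = 0.032). Sema3f did not pass without WT or Id control 1 or with the 3 date codes as a block. Plxnb1 did not pass with either block, and of the arrays left out in turn it passed without Id control 2 and without Id cKO only. The semaphorin and plexin median was 0.09 over 10 genes against Id control. Sema3a was 2-fold higher with IGFBP3 than without (1.14, 1 array against 1), as were 0.567% of all genes. After quantile normalisation Sema3a was at 6.57 and 5.45, so it reached the floor of 6 on the treated array alone.

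Hypoxia is a known inducer of Vegfa. Of 17 hypoxia-induced genes compared with Id control 14 were higher (median 0.43, against 45.3% of all genes), led by the adrenomedullin gene Adm (1.25), the carbonic anhydrase gene Car9 (0.96) and Ankrd37 (0.84), and 0 passed in limma. In the comparison of 3 with 3, Adm (1.91), the glucose transporter gene Slc2a1 (1.58) and Ndrg1 (1.31) rose and the lipoprotein receptor gene Vldlr (-0.88) fell, with adjusted p from 0.0132 to 0.0497 in limma, 4 of 16 against 4.37% of all genes. With no filter on low values Adm alone passed. None of the 16 passed without WT, the treated or the untreated array, Adm alone did with either block or without Id control 1 or 2, and 8 rose and 1 fell without Id cKO. Among all genes, 3302 of 10239 passed without Id cKO. Of 10 genes of hypoxia sensing 4 were higher than in Id control (median -0.12), with the prolyl hydroxylase gene Egln3 (1.18), itself induced by hypoxia, furthest up and the coactivator gene Ppargc1a (-1.03 ± 0.90, limma SE) furthest down. Ppargc1a was at 9.20 in Id control 1, 11.31 in Id control 2 and 9.22 in Id cKO. Id cKO was thus level with Id control 1, and the high value of Id control 2 set the difference. In the comparison of 3 with 3, 5 of 10 were higher (median -0.13) and 0 passed in limma.

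**Figure D4:**
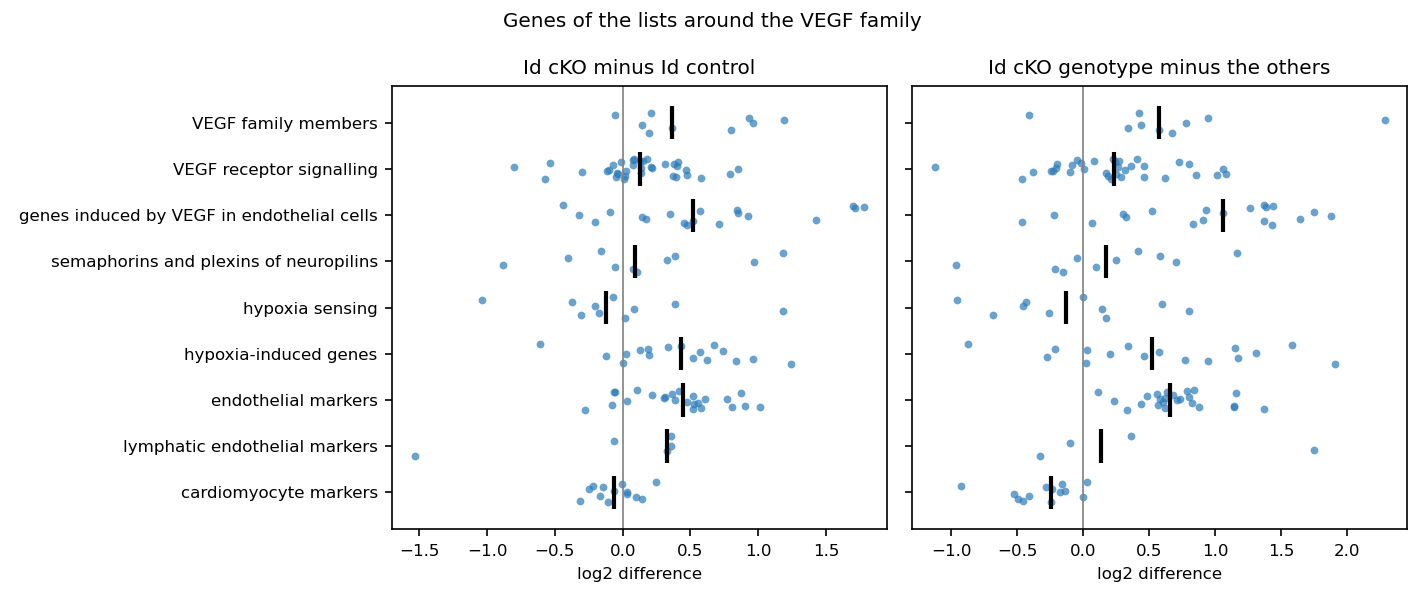
Log2 differences (horizontal axis) of the genes compared in each list, 1 point per gene with a bar at the median, for Id cKO against Id control (left, deposited values) and 3 Id cKO hearts against the 3 others (right, quantile-normalised). Genes induced by VEGF have the highest median among these lists in both panels, 0.52 and 1.06, and cardiomyocyte markers lie near or below 0.

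The genes whose pattern over the 6 quantile-normalised arrays was most like that of a member were sought among 2619 genes with a range of at least 1. Each had a mean of at least 6 in at least 1 group, and predicted and clone-named loci were left out. With 6 arrays in 2 sets many genes reach a high correlation, and the values describe likeness and nothing more. For Vegfa the nearest was Igfbp3 (Pearson r = 0.9986, n = 6 arrays), followed by the axon guidance receptor gene Robo1 (0.9928) and Hcls1 (0.9925), and 163 genes were above 0.9. Igfbp3 was at 7.38 to 7.47 in WT and the Id controls and at 11.22, 10.68 and 10.69 in the Id cKO hearts, a step of far greater height than that of Vegfa but with the same flat shape. For Pgf the nearest were Litaf (0.9977), Sh3bgrl3 (0.9966) and the galectin-3 gene Lgals3 (0.996), all highest in the pair, with 486 genes above 0.9. For Nrp2 they were the stem cell factor receptor gene Kit (0.9863), the survival gene Bcl2 (0.9681) and the Notch target gene Nrarp (0.9657), with 26 above 0.9. Flt1 was nearest to Leng8 (0.9936), Il4ra (0.9908) and Cox5a (0.9907), and Nrp1 to Nav3 (0.9868), Ifit3 (0.962) and Ly86 (0.9511). Nav3 reached 6 on the treated array alone (6.43, against 5.43 to 5.97 on the others). Only 9 genes passed 0.9 for Nrp1.

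**Figure D5:**
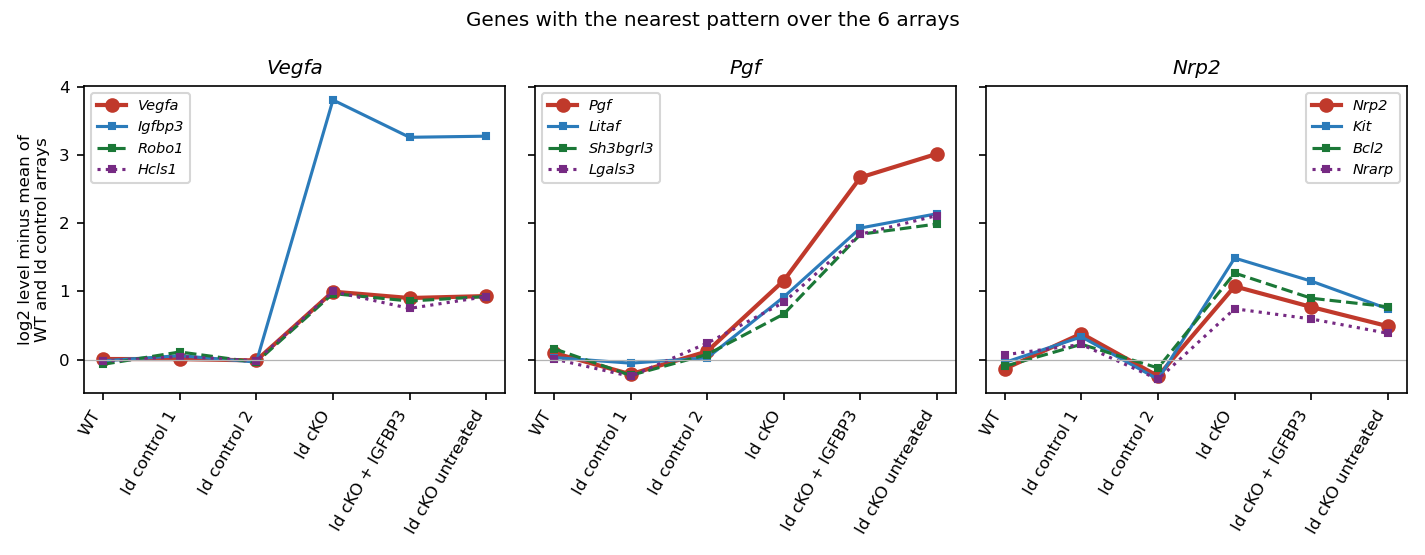
Levels on the 6 arrays (log2, quantile-normalised, minus the gene's mean over WT and the 2 Id controls) for Vegfa, Pgf and Nrp2 and the 3 genes with the highest Pearson r to each. The Vegfa panel shows a single step of about the same height on all 3 Id cKO hearts, with Igfbp3 far higher, while the Pgf panel has its highest values in the pair.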

How the data were processed

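Each sample was total RNA of a heart (300 ng) on 1 array. The deposited values are log2 levels of 35557 probe sets, made by the authors with Affymetrix Expression Console and RMA (versions not given in the sources used here), per the submitters' processing notes. GEO's platform annotation gave 21789 probe sets 1 symbol, 1621 several and 12147 none. Each of 19938 genes was read from its brightest probe set, by the mean of all 6 arrays. The number of arrays limits the precision.

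Differences are first-named minus second, on deposited values within a set of arrays and on quantile-normalised values across sets. A set here is the incubated pair or the arrays on the higher scale, among which Id control 1 has a date code of its own. A gene entered a comparison if either group's mean reached 6, judged on quantile-normalised values for the incubated pair. A gene under 6 in 1 group thus entered only through the group where it was higher, which touches the counts of higher and lower genes. Tests used limma 3.58.1 (R 4.3.3) with Benjamini-Hochberg adjustment over all genes compared and a limit of 0.05, checked on simulated data. The comparisons with Id control used 6 arrays in 5 groups. The genotypes and the date codes of the Id control pair differ. That pair gives the 1 residual degree of freedom, so a single array is taken to vary as it does. The comparison of 3 Id cKO hearts with the 3 others had 4. Comparisons of 1 array with 1 have no p-value and count genes at 2-fold.

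All members were described. Of each other list the genes passing limma were named, or with none passing the 3 with the largest difference from Id control; those 2-fold apart in other comparisons were added after their values were seen. Nearest patterns were taken for members with a range of at least 1. The members and lists were chosen with earlier results of these data known. Promoter windows are those of RefSeq. Alternatives covered the floor, the scaling, the probe set rule, limma's trend, the pair as a block and each array left out. The 3 date codes as a block, and leaving out both arrays of the pair, were added after seeing the data.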

Additional observations from a re-analysis of the deposited data

How the results depend on the processing

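In the comparison of 3 Id cKO hearts with the 3 others, 2 members and 441 genes passed in limma. With the pair as a block 0 members and 59 genes passed, and with the 3 date codes as a block also 0 and 59, where Vegfb turned to 0.012. Leaving out 1 array at a time gave 0 to 4 members and 24 to 3302 genes, and leaving out both arrays of the incubated pair, gave 0 and 31; this and the date codes were chosen after seeing the data. With a floor of 8, arrays did not overlap in 3 members in place of 5. In Id cKO against Id control, the members at least 2-fold from both controls were 1, and 0 with a floor of 8 or with median centring, and 1 to 2 when an Id control was left out, which leaves no test. Against WT the 2-fold members numbered 1 with a floor of 8 and 4 with median centring, which moved the median of all genes from 0.0045 to 0.0667. Between Id control and WT, 1 gene passed in limma with no filter and 1 with median centring, against 0, and median centring moved the median of all genes from 0.05 to 0.15. There Vegfa turned to -0.011 after quantile normalisation and Vegfb to 0.066 with median centring. No paired analysis was possible because most groups had 1 array. The other counts of members stayed within 1.5 times of the reported ones. With 1 array in most groups, the number of arrays limits what these comparisons can show.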
